A study of Mus musculus with 32 samples.

Results

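The genes described are *Hnf4a*, *Hnf4aos*, *Hnf4g* and *Nr1h4*, 4 of the 53700 genes in the table of read counts, chosen by name with earlier results of the same table known. The counts come from whole kidneys of 32 male C57BL/6 mice, 1 RNA library each, in 3 groups. The PKD group (n = 12) and the PKD + Salsalate group (n = 12) were iKspCre-*Pkd1*del mice, whose homozygous, tamoxifen-inducible Cre is driven by the Ksp-cadherin promoter of kidney tubule cells and cuts out exons 2 to 11 of *Pkd1*, a gene whose loss gives cysts in tubules. Both PKD groups had received tamoxifen (150 mg/kg) on postnatal days 18 and 19 and were labelled 95 days old. The PKD + Salsalate mice ate chow with 2.5 g/kg salsalate, a prodrug of salicylate, for 2 weeks from day 81, and the PKD mice ate normal chow. The wildtype mice (n = 8) received no tamoxifen and were labelled 109 days old, while the protocol text has all mice killed on day 95, a conflict the sources used here do not settle. *Pkd1* deletion, tamoxifen and, if the labels are right, age cannot be told apart in a comparison with wildtype. Of the wildtype libraries, 5 (replicates 1 to 5) have names that end in R (the R set) and 3 (replicates 6 to 8) do not. No library of either PKD group has a name with that ending. In a comparison with the R set, library set therefore cannot be told apart from *Pkd1* deletion either. Reads counted on genes were 73.6 to 76.4% in the R set and 80.9 to 83.1% in the other wildtype set. They were 74.1 to 82.9% in PKD and 78.6 to 82.7% in PKD + Salsalate. The meaning of the ending is not given in the sources used here. Because the levels of many genes differed between these sets, the comparisons of the 4 genes with wildtype, and the counts of the gene lists, are given for all 8 libraries and for each set.

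HNF4A, encoded by *Hnf4a*, is a nuclear receptor that binds DNA as a dimer and is known for keeping the hepatocyte and the proximal tubule cell in their mature state, by activating genes of transport and of lipid and glucose metabolism. HNF4G, encoded by *Hnf4g*, is its close relative and binds similar sites. *Nr1h4* encodes FXR, the bile acid receptor, which binds DNA together with RXR and is made in liver, intestine and kidney tubules. *Hnf4a* has an upstream start (P2) and a downstream start (P1), and P1 is the main start in adult kidney and liver. *Hnf4aos* is a long non-coding RNA read from the opposite strand. Its own start lies between those starts, and its annotated span runs past P2.

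*Hnf4a* (ENSMUSG00000017950) lies on chr2:163348728-163414830 of GRCm39, on the plus strand, and *Hnf4aos* (ENSMUSG00000046840) on chr2:163325137-163383642, on the minus strand. *Hnf4g* (ENSMUSG00000017688) lies on chr3:3573084-3724860, plus strand, and *Nr1h4* (ENSMUSG00000047638) on chr10:89289742-89369497, minus strand. The spans of *Hnf4a* and *Hnf4aos* overlap by 34915 bases, yet their exons overlap by 0 bases in GENCODE M39, and no other annotated gene overlaps an exon of the 4 genes. The start of *Hnf4aos* lies 5434 bases upstream of P1 and 34864 bases downstream of P2, inside the intron that follows the P2 exon. All 6 annotated *Hnf4aos* transcripts share the splice site of a 220-base first exon. The authors counted by strand on whole genes, so that reads of *Hnf4a* and *Hnf4aos* were kept apart, while transcripts from P1 and P2 were not.

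**Figure D1:**
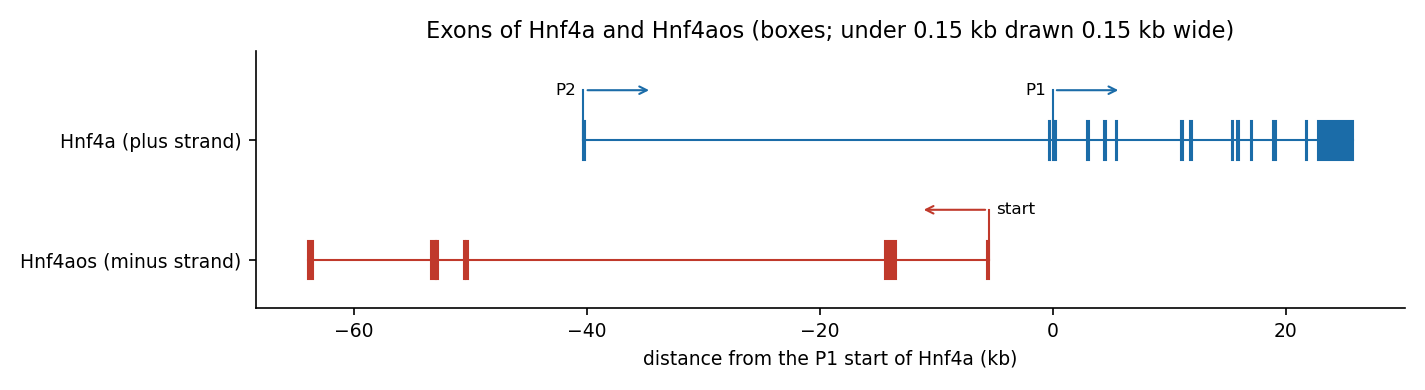
Exons (boxes) and introns (lines) of *Hnf4a* (blue) and *Hnf4aos* (red), drawn against the distance in kb from the P1 start, to scale except that the shortest exons are widened as the title states. Bent arrows mark the starts and the direction of reading. The *Hnf4aos* start lies between P2 and P1, and no box of one gene lies over a box of the other.

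The 200 bases before the start of *Hnf4aos*, of *Hnf4a* at P1 and of *Nr1h4* are shown because these sequences are where the 3 genes can be compared for matches to factors of the same family, and the first exon of *Hnf4aos* is shown because it is common to its transcripts. The promoters come from RefSeq (table of GRCm38.p6), and their positions in GRCm39 were found by exact, single matches. The letters CAAAGTCC (an HNF4 core) were searched on both strands, and the match is in capitals. These letters were chosen after the promoters had been read.
*Hnf4aos* promoter, chr2:163383642-163383841, minus strand: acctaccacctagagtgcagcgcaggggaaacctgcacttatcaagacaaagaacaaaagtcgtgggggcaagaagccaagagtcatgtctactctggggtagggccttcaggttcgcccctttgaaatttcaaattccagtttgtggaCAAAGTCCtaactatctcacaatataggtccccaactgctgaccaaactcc
*Hnf4a* P1 promoter, chr2:163388875-163389074, plus strand: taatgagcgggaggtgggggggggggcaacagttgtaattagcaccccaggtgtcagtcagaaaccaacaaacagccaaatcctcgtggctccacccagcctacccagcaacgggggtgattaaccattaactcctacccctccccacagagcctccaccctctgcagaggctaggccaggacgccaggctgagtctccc
*Nr1h4* promoter, at a start inside the annotated span, chr10:89342521-89342720, minus strand: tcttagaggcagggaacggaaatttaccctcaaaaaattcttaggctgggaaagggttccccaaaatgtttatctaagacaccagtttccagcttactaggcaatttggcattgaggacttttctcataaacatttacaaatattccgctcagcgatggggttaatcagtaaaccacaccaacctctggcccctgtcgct
*Hnf4aos* first exon, chr2:163383423-163383642, minus strand: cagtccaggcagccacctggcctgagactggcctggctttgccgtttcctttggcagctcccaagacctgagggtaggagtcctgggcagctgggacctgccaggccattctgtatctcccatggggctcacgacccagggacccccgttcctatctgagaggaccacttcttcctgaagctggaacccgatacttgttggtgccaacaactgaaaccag

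The *Hnf4aos* promoter held CAAAGTCC at bases 51 to 44 before the start, on its own strand. The P1 and *Nr1h4* promoters did not hold these letters. Within 250 bases before the start, CAAAGTCC was present in 1.2% of 32851 RefSeq promoters. The letters AGGTCA followed after 1 base by themselves (an HNF4-type direct repeat) or by their reverse complement (an FXR-type inverted repeat) were in none of these 3 windows and in 0.0335% and 0.00609% of all promoters. These matches are descriptions of letters and say nothing of binding.

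Total counts on genes were between 11193136 and 109807664 per kidney (median 17242801), and no columns were identical. All 4 genes passed the filter on low counts, with between 59 counts (*Hnf4g*, a PKD kidney) and 84425 counts (*Hnf4a*, a PKD + Salsalate kidney) in a library. Proximal tubule markers, the cells in which *Hnf4a* is known to be made, were present in all kidneys, and their summed level was 25730 to 39650 CPM (the count relative to the library's total, which was scaled by the trimmed mean of M-values) in the wildtype libraries ending in R, 36860 to 41850 in the others, 27940 to 36870 in PKD and 21980 to 35290 in PKD + Salsalate. None of the 12 markers was at 0 in a group. *Kap* was the largest part of their sum, with means of 14390 CPM in wildtype, 13190 in PKD and 13430 in PKD + Salsalate. In PKD against all wildtype 2 of the 12 rose and 6 fell at an adjusted p under 0.05 by edgeR (24.1% and 25% of all genes). Against the R set 5 rose and 4 fell (30.7% and 28.9%), and against the other set 0 rose and 7 fell (20.9% and 19.9%). PKD replicate 10 stood apart with a sum of 3677 CPM over 12 liver markers, against at most 178.8 in any other kidney. A sum of 6 tubule injury markers was 235 to 504 CPM in wildtype, 1216 to 2683 in PKD and 1047 to 3517 in PKD + Salsalate. Most of this sum was *Spp1*, with means of 334, 1884 and 1553 CPM in these groups. *Pkd1* itself had 68.7 ± 10.9 CPM (SD) in wildtype, 92.1 ± 15.1 in PKD and 92.7 ± 15.1 in PKD + Salsalate, and counts over the whole gene do not separate the deleted exons, so this level checks no label.

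Per kb of exon, the order of the 4 genes was the same in every group. *Hnf4a* had 120 CPM per kb in wildtype (90.2 to 188 over 8 kidneys), 107 in PKD and 114 in PKD + Salsalate. *Nr1h4* followed with 28.4, 26.1 and 24.5 CPM per kb. *Hnf4aos* had 9.48, 5.20 and 3.42, and *Hnf4g* had 1.41, 1.19 and 1.30. In each group, the ranges over kidneys of neighbours in this order did not overlap. The exon lengths are those of GENCODE M39, and the model of *Hnf4aos* there may be longer than the one the authors counted on, which makes its value per kb the least certain. Among 49 listed nuclear receptor genes, *Hnf4a* had the highest mean level per kb in all 3 groups, *Nr1h4* ranked 6 in wildtype, 6 in PKD and 7 in PKD + Salsalate, and *Hnf4g* ranked 28 in each. Across kidneys, the library held between 0.535 and 1.83 counts of *Hnf4g* per 100 counts of *Hnf4a*.

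The values that follow describe these genes and carry no test, since the genes were chosen from results of these contrasts. In bulk RNA, fewer tubule cells and less RNA per cell cannot be told apart.

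*Hnf4a*, the receptor itself, had levels near each other in all groups except for the wildtype libraries whose names do not end in R. The wildtype libraries ending in R held 459.5, 454, 503, 503 and 586 CPM, and the others 726, 949 and 662 CPM. Every library of the first set lay below every library of the second, which was so for 21.4% of the 13961 genes tested. The PKD kidneys had 397 to 715 CPM (median 536), and the PKD + Salsalate kidneys 476 to 770.5 (median 541). Both PKD groups therefore lay across the R set and mostly under the other set: 11 of 12 PKD and 11 of 12 PKD + Salsalate kidneys were below all 3 of the latter, and 4 and 5 of 12 were above all 5 of the former. How many of all genes show such counts was not worked out. On the log2 scale of the edgeR fit, PKD was -0.16 ± 0.12 (SE) against all wildtype, 0.11 ± 0.11 against the R set and -0.54 ± 0.14 against the other set. PKD + Salsalate was -0.08 ± 0.12, 0.19 ± 0.11 and -0.45 ± 0.14 against the same libraries. The sign of the difference thus depended on the wildtype set, and for PKD + Salsalate it also turned to 0.04 without wildtype replicate 7, the library with 949 CPM. PKD + Salsalate against PKD was 0.08 ± 0.11, with 1 of 12 treated kidneys above and none below the whole PKD range. The summed proximal tubule markers also had a lower median in the R set (30420 CPM) than in the other set (39650), with overlapping ranges. Among the single markers, *Slc7a13*, *Acsm2* and *Gatm* went the other way. In PKD they stood at -0.97, -0.57 and -0.61 against the R set and at -0.48, -0.22 and -0.49 against the other. The part of these markers in the *Hnf4a* levels was not tested.

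*Hnf4aos*, the antisense RNA, was lower in PKD than in wildtype and lower still in PKD + Salsalate. The wildtype libraries ending in R had 25.4, 24.3, 18.3, 36.0 and 19.7 CPM, and the others had 21.2, 16.0 and 17.8. Both wildtype sets overlapped, unlike those of *Hnf4a*. PKD kidneys had 7.90 to 18.1 CPM (median 11.3), and PKD + Salsalate kidneys had 4.73 to 11.2 (median 8.14). All 12 PKD + Salsalate kidneys lay below all 8 wildtype kidneys, as was the case for 1.93% of genes tested. All 12 PKD kidneys lay below the R set (8.39% of genes), and 11 of 12 lay below the other set, the exception being PKD replicate 3 with 18.1 CPM. No share over all genes was worked out for the count of 11. The mean was 22.3 ± 6.38 CPM (SD, n = 8) in wildtype, 12.25 ± 3.26 in PKD (n = 12) and 8.06 ± 1.73 in PKD + Salsalate (n = 12).

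As log2 fold changes, *Hnf4aos* in PKD was at -0.87 ± 0.15 (SE) against all wildtype, -1.03 ± 0.17 against the R set and -0.61 ± 0.20 against the other set. PKD + Salsalate was at -1.47 ± 0.16, -1.63 ± 0.17 and -1.20 ± 0.19. Of the 4 genes, *Hnf4aos* was the one whose levels stayed below wildtype by more than 1 on the log2 scale in PKD + Salsalate against either set. Between the treated and untreated PKD mice the difference was -0.60 ± 0.14, all 12 treated kidneys were under the PKD median, and 5 of 12 were under the lowest PKD kidney. How many of all genes reach these 2 counts was not worked out. The ranges of these groups overlapped, as they did for nearly all genes: 0.00716% of genes had a treated range wholly below the PKD range. Leaving out any 1 kidney kept the last difference between -0.65 and -0.54. The proximal tubule marker sum had a median of 30420 CPM in the R set, 39650 in the other wildtype set, 31400 in PKD and 30720 in PKD + Salsalate, so that it was below PKD in the first set and above it in the second, and injury markers were higher in both PKD groups than in wildtype. Their part in the *Hnf4aos* levels was not tested.

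Because *Hnf4a* and *Hnf4aos* are read from one locus, their counts were also compared kidney by kidney, which removes the scaling between libraries. Wildtype libraries ending in R held 5.52, 5.35, 3.63, 7.15 and 3.36 counts of *Hnf4aos* per 100 counts of *Hnf4a*, and the others held 2.92, 1.69 and 2.69. Every library of the first set was thus above every library of the second. *Hnf4a*, by which the ratio divides, was itself wholly lower in the first set (454 to 586 against 662 to 949 CPM), while *Hnf4aos* overlapped. No share over other pairs of genes was worked out. PKD kidneys held 1.11 to 3.45 (median 2.44) and PKD + Salsalate kidneys 0.809 to 1.82 (median 1.52). The ratio in PKD overlapped that of the wildtype libraries not ending in R, and the treated kidneys overlapped them through wildtype replicate 7 at 1.69.

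*Hnf4g*, the second HNF4 gene, was at low levels in all kidneys. Wildtype libraries ending in R had 6.91, 6.47, 5.52, 9.22 and 6.61 CPM, and the others had 4.63, 5.08 and 5.19. The R set lay wholly above the other set, as for 22.4% of genes, which is the reverse of the order seen for *Hnf4a*. PKD kidneys had 3.67 to 7.08 CPM (median 4.98) and PKD + Salsalate kidneys 4.02 to 7.35 (median 5.78), across both wildtype sets. The log2 fold change in PKD was -0.24 ± 0.13 (SE) against all wildtype, -0.42 ± 0.15 against the R set and 0.06 ± 0.17 against the other set. In PKD + Salsalate it was -0.12 ± 0.13, -0.29 ± 0.15 and 0.19 ± 0.17. The sign therefore differed between the sets here too, in the opposite sense to *Hnf4a*. PKD + Salsalate against PKD was 0.12 ± 0.12, within the spread of both groups.

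*Nr1h4*, the gene of FXR, was the member whose wildtype sets were most alike. Libraries ending in R had 177, 157, 101, 137.5 and 119 CPM, and the others 131, 158 and 122. PKD kidneys had 70.9 to 156 CPM (median 129.6), and PKD + Salsalate kidneys 80.3 to 151 (median 117). All groups overlapped widely. Only PKD replicate 4, at 70.9 CPM, and 3 of 12 treated kidneys, at 80.3, 87.6 and 91.2 CPM, lay under the lowest wildtype library. The log2 fold change was -0.12 ± 0.12 (SE) in PKD and -0.21 ± 0.12 in PKD + Salsalate against all wildtype, -0.13 ± 0.15 and -0.22 ± 0.15 against the R set, and -0.12 ± 0.17 and -0.21 ± 0.17 against the other set. PKD + Salsalate against PKD was -0.09 ± 0.11.

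**Figure D2:**
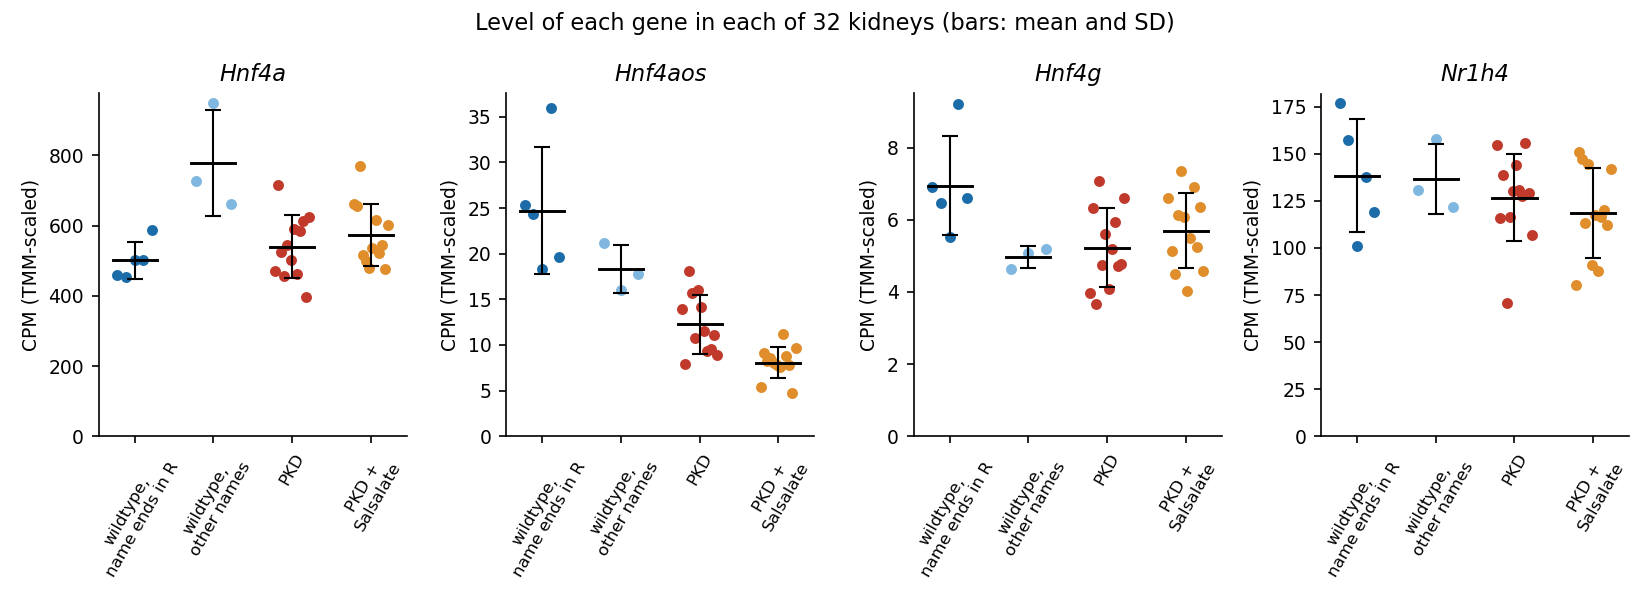
CPM of each gene in each kidney on linear axes that start at 0, with the wildtype libraries split by name. Points are kidneys, and black lines give the mean and SD. For *Hnf4a* the 3 wildtype libraries not ending in R (662 to 949 CPM) all sit above the 5 ending in R, for *Hnf4aos* every PKD + Salsalate kidney sits below every wildtype kidney, and for *Nr1h4* the groups overlap.

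**Figure D3:**
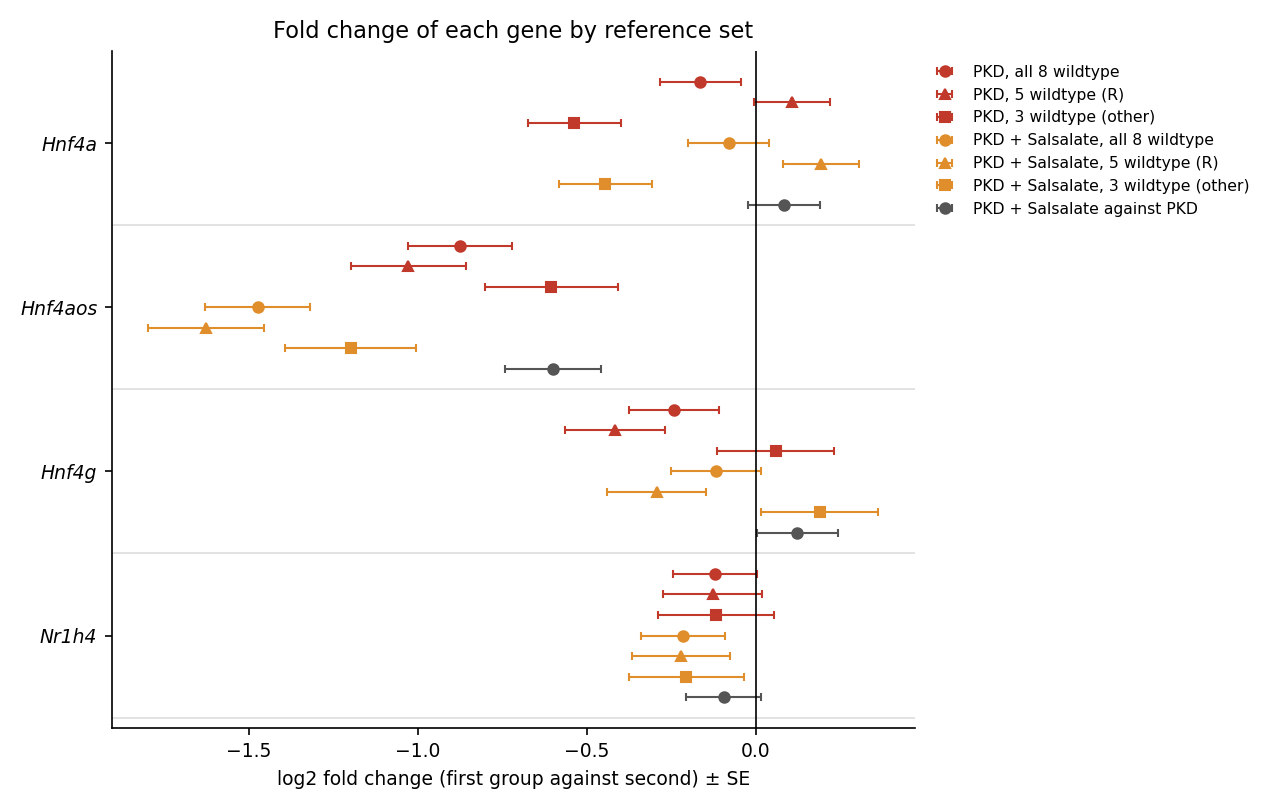
Log2 fold changes with SE from the fit of all genes, for PKD (red) and PKD + Salsalate (orange) against all 8, the 5 R or the 3 other wildtype libraries, and for PKD + Salsalate against PKD (grey). *Hnf4a* and *Hnf4g* have points on both sides of 0 that depend on the wildtype set, and all 7 points of *Hnf4aos* are below 0.

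How the genes varied together from kidney to kidney inside a group was not used in choosing them and could be tested. The 6 pairs of genes were correlated in log2 CPM within PKD and within PKD + Salsalate, 12 relations in all, with permutation p-values from 100000 permutations adjusted over the 12. The 5 and 3 wildtype libraries of each set were too few. Within PKD, kidneys with more *Hnf4g* had less *Nr1h4*: Pearson's r was -0.755 (permutation p = 0.00101, adjusted p = 0.0121, n = 12) and Spearman's rho -0.846 (permutation p = 0.00102, adjusted p = 0.0122). Without the 2 kidneys farthest from the median of *Hnf4g*, PKD replicates 4 and 3, r was -0.773. With any 1 PKD kidney left out r stayed between -0.785 and -0.721, but the adjusted permutation p passed 0.05 without replicate 1 (0.076), 4 (0.0796) or 7 (0.0526). With the proximal tubule marker level taken out of both genes it was -0.73 (adjusted permutation p = 0.0469). Within PKD + Salsalate the same pair had r = -0.325 (permutation p = 0.299, adjusted p = 0.64) and rho = -0.406 (permutation p = 0.191, adjusted p = 0.459), and r = -0.252 without the 2 farthest kidneys. The difference between the groups was not tested. The PKD libraries held 59 to 309 counts of *Hnf4g* and 762 to 5661 of *Nr1h4*. PKD replicate 4, with the highest *Hnf4g* and lowest *Nr1h4* level in CPM, had the lowest total on genes (11193136) of the PKD libraries. Its share of reads on genes, 74.15%, was also the lowest of them, and r without it was -0.737.

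*Hnf4a* and *Hnf4aos* had r = -0.546 within PKD (permutation p = 0.0656, adjusted p = 0.394; rho = -0.608, permutation p = 0.0392, adjusted p = 0.235), and r = -0.607 without PKD replicates 11 and 2, the farthest from the median of *Hnf4a*. Within PKD + Salsalate r was 0.232 (permutation p = 0.469, adjusted p = 0.687; rho = 0.364, permutation p = 0.245, adjusted p = 0.465), and 0.692 without replicates 3 and 1. Neither relation passed the correction, and the second rested on which kidneys were included. The other 8 relations had r between -0.469 and 0.286, with adjusted permutation p-values from 0.46 to 0.936. As a description over 12 kidneys that share the same libraries, r with the mean log2 level of the proximal tubule markers was 0.55 in PKD and 0.731 in PKD + Salsalate for *Hnf4a*, -0.267 and 0.598 for *Hnf4aos*, -0.303 and -0.304 for *Hnf4g*, and 0.495 and 0.293 for *Nr1h4*.

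**Figure D4:**
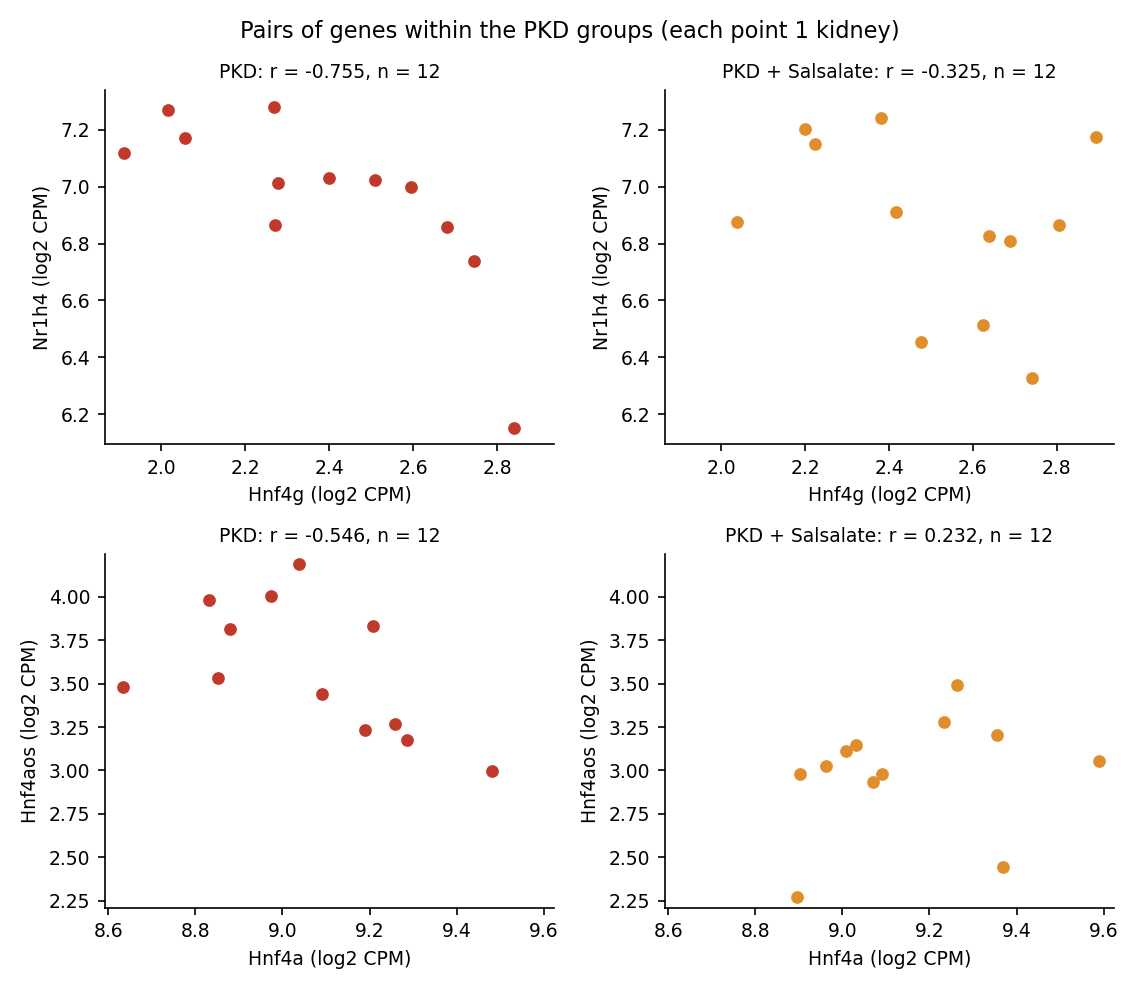
Log2 CPM of *Nr1h4* against *Hnf4g* (top) and of *Hnf4aos* against *Hnf4a* (bottom), for the 12 PKD kidneys (left, red) and the 12 PKD + Salsalate kidneys (right, orange), with the same axes in each row. The top left panel slopes down (r = -0.755), with PKD replicate 4 at the lower right end, and the top right panel is looser (r = -0.325).

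The other nuclear receptors give the family's background. Of 46 other receptor genes, 33 passed the filter, and in PKD against wildtype 4 rose, 14 fell and 15 did not pass edgeR's quasi-likelihood test at an adjusted p of 0.05. Over all genes, 49.1% passed it in that comparison, 24.1% up and 25% down, and the median log2 fold change was -0.17 for the receptors against -0.01 for all genes. *Nr4a1*, an immediate early receptor gene, rose by 1.23 ± 0.20 (SE) on the log2 scale (adjusted p = 6.67e-06, edgeR), and its relative *Nr4a2* rose by 0.53 ± 0.14. *Nr4a1* and *Nr4a2* passed against either wildtype set. The other receptors that rose, named after their values were seen, were *Rara* and *Nr1i2*, which did not pass against the set not ending in R (adjusted p = 0.0883 and 0.231, edgeR). *Esr1*, the oestrogen receptor alpha gene, fell by 0.81 ± 0.11 (adjusted p = 1.72e-07, edgeR) and *Esrrb*, an orphan receptor gene, fell by 0.57 ± 0.09. *Rxra*, which encodes the partner of FXR, fell by 0.33 ± 0.08 (adjusted p = 0.000871, edgeR), from 129 ± 20.2 CPM (SD) in wildtype to 103.2 ± 11.1. *Ppara*, the receptor gene of fatty acid oxidation, fell by 0.31 ± 0.09 (adjusted p = 0.00645, edgeR), and passed the test against the R set but not against the 3 others (adjusted p = 0.0795). By set, PKD had 6 receptors up and 17 down against the R set (30.7% and 28.9% of all genes), and 2 up and 12 down against the other (20.9% and 19.9%). PKD + Salsalate had 5 up and 17 down against the R set (29.7% and 28.4%), and 2 up and 11 down against the other (18.3% and 16.5%). Against all wildtype, PKD + Salsalate had 3 receptors up and 14 down, where 44.9% of all genes passed the test (21.8% up, 23.2% down). In PKD + Salsalate against PKD, edgeR called 0 of the 33 (0.58% of all genes), DESeq2 0 and limma-voom 0, and 8 had an unadjusted p under 0.05 by each of these tools, as had 1436 of all 13961 genes by edgeR.

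Partner factors gave a similar count. Of 16 genes 11 were tested, and 1 rose and 5 fell in PKD against wildtype (24.1% and 25% of all genes). Against the R set 1 rose and 6 fell (30.7% and 28.9%), and against the other 1 rose and 2 fell (20.9% and 19.9%). *Ppargc1a*, a coactivator gene of nuclear receptors and mitochondria, fell by 0.33 ± 0.09 (adjusted p = 0.00262, edgeR), *Ppargc1b* fell by 0.52 ± 0.14, *Ncoa1* fell by 0.33 ± 0.07 and *Cebpb* fell by 0.62 ± 0.19, and against the 3 wildtype libraries not ending in R none of these 4 passed the test. Outside the naming rule, *Ep300* rose and *Ncoa3* fell, but *Ep300* did not pass against the R set (adjusted p = 0.137, edgeR) and *Ncoa3* stood at 0.01 against the other set (adjusted p = 0.939). PKD + Salsalate had 0 up and 5 down of 11 against all wildtype (21.8% and 23.2% of all genes). It had 1 up and 6 down against the R set (29.7% and 28.4%), and 0 up and 2 down against the other (18.3% and 16.5%). Against PKD, edgeR, DESeq2 and limma-voom called 0 of 11, where edgeR called 0.58% of all genes, and 0 had an unadjusted p under 0.05.

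Of 18 other transcription factor genes of kidney tubules, all tested, 3 rose and 10 fell in PKD against wildtype, with a median log2 fold change of -0.26, where 24.1% of all genes rose and 25% fell. Against the R set 4 rose and 11 fell (30.7% and 28.9% of all genes), and against the other set 2 rose and 9 fell (20.9% and 19.9%). *Elf3*, an epithelial ETS factor gene, rose by 1.34 ± 0.10 (SE; adjusted p = 2.29e-12, edgeR), from 20.0 ± 3.67 CPM (SD) to 50.6 ± 6.88, and *Elf5*, of the same family, rose by 0.99 ± 0.17. *Tfap2b*, a factor gene of the distal tubule, fell by 1.09 ± 0.14 (adjusted p = 1.46e-07, edgeR), and *Emx1* fell by 0.71 ± 0.08. The other gene that rose, named after its values were seen, was *Pax2*, which stood at 0.58 against the R set and at -0.05 (adjusted p = 0.752, edgeR) against the other. *Elf3*, *Elf5*, *Tfap2b* and *Emx1* kept their direction and passed the test against either wildtype set. In PKD + Salsalate 3 rose and 11 fell against all wildtype (21.8% and 23.2% of all genes). The counts were 4 and 11 against the R set (29.7% and 28.4%), and 1 and 8 against the other (18.3% and 16.5%). Against PKD, edgeR called 0 of 18, DESeq2 1 (*Elf3*, which stood at -0.30 ± 0.08 (SE) with an adjusted p of 0.0875 by edgeR) and limma-voom 0, and 1 had an unadjusted p under 0.05 by each tool.

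Known target genes of HNF4A were read against the same sets. Of 26 listed, 20 passed the filter, and 5 rose and 1 fell in PKD against all wildtype (24.1% and 25% of all genes). Against the R set 14 rose and 0 fell, where 30.7% of all genes rose and 28.9% fell. Against the other set 1 rose and 6 fell, where 20.9% of all genes rose and 19.9% fell. For 13 of the 20 genes the log2 fold change was above 0 against the first set and below 0 against the second. So it was for 3 of 12 proximal tubule markers, 4 of 9 FXR genes and 5 of 33 other receptors. Among markers of later tubule parts it was so for 2 of 4 of the thick ascending limb, 2 of 6 of the collecting duct and 0 of 3 of the distal convoluted tubule. In PKD + Salsalate it was so for 13 of 20 targets and 6 of 12 proximal tubule markers. There the counts for the later parts were 3 of 4, 2 of 6 and 0 of 3. How many of all genes turn sign in this way was not counted. *G6pc1*, the gluconeogenic phosphatase gene, shows this turn most plainly: it was named after its values were seen, and stood at 1.16 (adjusted p = 4.86e-08, edgeR) against the R set and at -0.57 (adjusted p = 0.00338) against the other. *Cdhr2*, a brush border cadherin gene, rose by 0.88 ± 0.13 (SE; adjusted p = 9.41e-07, edgeR) against all wildtype and was higher against either set, with 27.0 ± 9.18 CPM (SD) in wildtype, 49.8 ± 8.54 in PKD and 61.2 ± 6.65 in PKD + Salsalate. *Anpep*, a brush border peptidase gene, rose by 0.52 ± 0.14 (adjusted p = 0.00237, edgeR) and stood at 0.01 (adjusted p = 0.956) against the set not ending in R. The others that rose were *Mttp*, *Apom* and *Apoa2*, and *Apoa4* fell. Of these, *Mttp* and *Apom* did not pass against the set not ending in R (adjusted p = 0.113 and 0.742, edgeR), *Apoa4* did not against the R set (0.179), and *Apoa2* did not against either (0.15 and 0.145). PKD + Salsalate had 4 up and 2 down against all wildtype, 12 up and 2 down against the R set (29.7% and 28.4% of all genes), and 1 up and 7 down against the other (18.3% and 16.5%).

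The values of some genes of that list, the apolipoprotein genes *Apoa2* and *Apoc3* among them, depended on PKD replicate 10, the kidney with liver transcripts. *Apob* had 179.2 CPM in it and 41.2 to 118.1 in the other PKD kidneys, and *Ttr* 289.9 and 24.1 to 52.0. The counts by wildtype set all include that kidney. *Apoa2* had 246.8 CPM there and 3.52 to 7.26 in the other 11 PKD kidneys, and its log2 fold change against wildtype went from 1.71 ± 0.71 (SE; adjusted p = 0.0447, edgeR) with that kidney to -0.60 ± 0.15 (adjusted p = 0.00142) without it. *Apoa4* fell by 0.60 ± 0.17 (adjusted p = 0.0036, edgeR) with it, and by 0.74 without it, and *Apom* rose by 0.29 with it and by 0.31 without it. *Apoc3*, the gene of the list that differed between treated and untreated PKD mice, had 9.44 ± 2.18 CPM (SD) in wildtype, 45.2 in PKD replicate 10, 3.30 to 10.2 in the other PKD kidneys and 4.14 ± 0.49 in PKD + Salsalate. It fell by 1.17 ± 0.29 (SE; adjusted p = 0.0486, edgeR) in PKD + Salsalate against PKD, and by 0.59 ± 0.13 (adjusted p = 0.0225) without replicate 10. Limma-voom called 0 of the 20, and of the 32 fits that leave out a kidney 20 lost the call. Without replicate 10 the list had 4 up and 4 down in PKD against wildtype. In that kidney *Hnf4a* had 612.6 CPM, *Hnf4aos* 9.54 and *Hnf4g* 4.73, all within the range of the other PKD kidneys, and *Nr1h4* had 156, just above the other 11 (70.9 to 154).

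**Figure D5:**
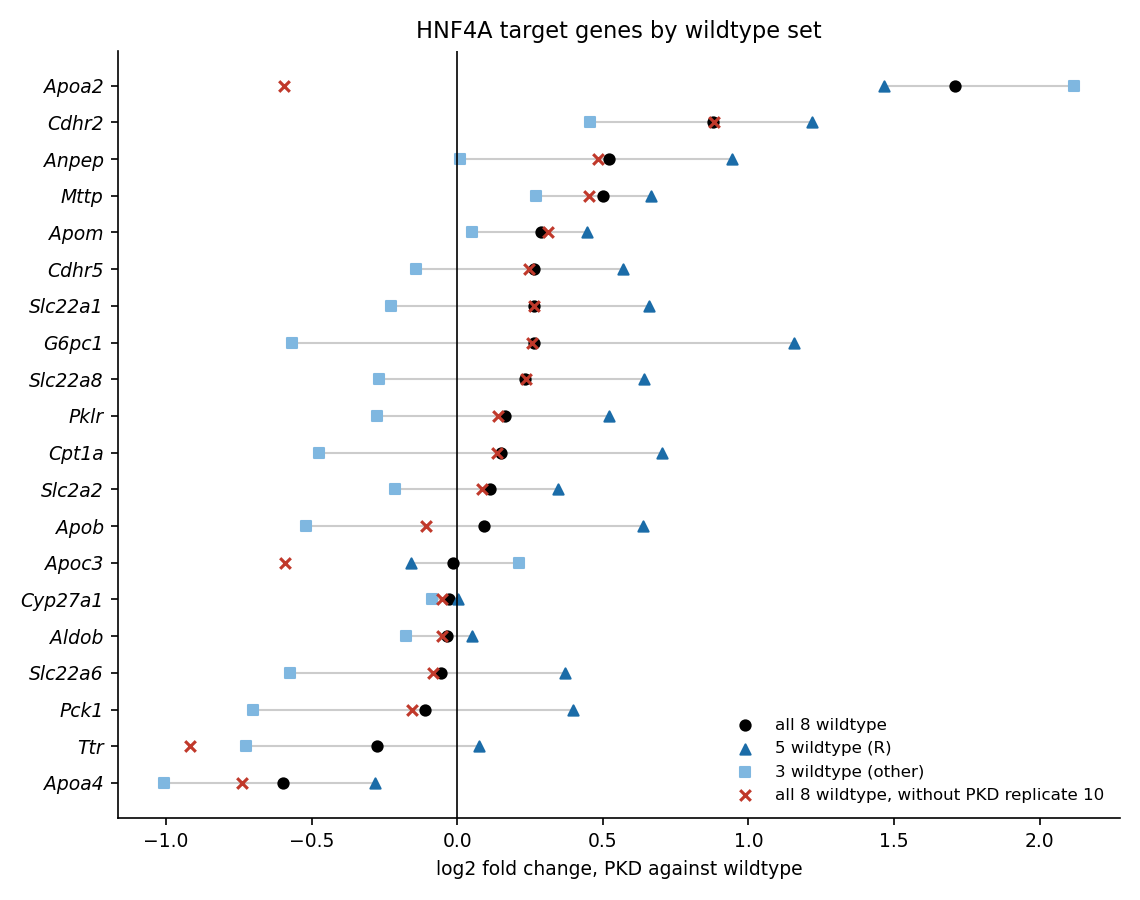
Log2 fold change of the 20 tested HNF4A target genes in PKD against all 8 wildtype libraries (black circles), the 5 ending in R (dark triangles) and the 3 others (light squares), and against all 8 without PKD replicate 10 (red crosses). For 13 genes the triangle is above 0 and the square below 0, a turn that was not counted over all genes. For *Apoa2* and *Apob* the cross is on the other side of 0 from the circle.

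For FXR, 10 of 22 genes of its targets and of bile acid handling were tested. In PKD 4 rose and 1 fell against all wildtype (24.1% and 25% of all genes), 7 rose and 1 fell against the R set (30.7% and 28.9%), and 3 rose and 1 fell of 9 tested against the other set (20.9% and 19.9%). Without PKD replicate 10, 4 rose and 2 fell against all wildtype, where 3267 and 3435 of all 13948 genes tested did. In PKD + Salsalate 3 rose and 1 fell against all wildtype (21.8% and 23.2% of all genes). The counts were 5 and 1 against the R set (29.7% and 28.4%), and 2 and 2 against the other (18.3% and 16.5%). Against PKD the treated kidneys had 0 calls by edgeR, 0 by DESeq2 and 0 by limma-voom, with 2, 2 and 1 genes at an unadjusted p under 0.05. *Slc10a2*, the sodium-dependent bile acid uptake carrier gene, had 25.3 ± 8.68 CPM (SD) in wildtype, 49.3 ± 7.63 in PKD and 60.9 ± 9.15 in PKD + Salsalate, and rose by 0.95 ± 0.14 (SE; adjusted p = 1.23e-06, edgeR) in PKD. *Slc51a*, which encodes a subunit of the basolateral bile acid exporter, fell by 0.66 ± 0.19 (adjusted p = 0.00442, edgeR) against all wildtype and by 0.90 against the R set, and stood at -0.15 (adjusted p = 0.556) against the other set. *Sdc1*, syndecan 1, rose by 0.95 ± 0.15 and *Vldlr*, a lipoprotein receptor gene, rose by 0.51 ± 0.07, and *Pltp* was the other gene that rose, though not against the set not ending in R (adjusted p = 0.162, edgeR). *Slc10a2*, *Sdc1* and *Vldlr* passed the test against either wildtype set. *Nr0b2*, the FXR target gene that encodes SHP, was under the filter, at 1.98 ± 0.41 CPM (SD) in wildtype, 1.97 ± 0.99 in PKD and 1.58 ± 0.20 in PKD + Salsalate, and PKD replicate 10 held 4.97 CPM against 1.26 to 2.38 in the other PKD kidneys.

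Genes next to the *Hnf4a* locus were looked at for comparison with *Hnf4aos*. Within 250 kb lay 14 other genes of the table, 8 of them tested, and 4 rose and 0 fell in PKD against all wildtype (24.1% and 25% of all genes). They were *Oser1* (0.39 ± 0.07 on the log2 scale, SE), *Jph2* (0.32 ± 0.12), *Serinc3* (0.30 ± 0.07) and *Ttpal* (0.22 ± 0.06), while *Ada*, *Pkig*, *Fitm2* and *2900093K20Rik* did not pass the test. Against the R set (30.7% and 28.9% of all genes) 4 rose and 1 fell, *Ada* at -0.45 (adjusted p = 0.0149, edgeR). Against the other set (20.9% and 19.9%) 1 rose, *Oser1*, and 1 fell, *Fitm2* at -0.43 (adjusted p = 0.000452, edgeR). In PKD + Salsalate 3 rose and 0 fell against all wildtype (21.8% and 23.2% of all genes). Of the same neighbours, 4 rose and 1 fell against the R set (29.7% and 28.4%), and 1 rose and 1 fell against the other (18.3% and 16.5%). Against PKD their adjusted p-values were between 0.228 (*Oser1*) and 0.977 (*2900093K20Rik*) by edgeR.

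The genes whose levels went most closely with each member were found over all 32 kidneys, after the mean of each group and wildtype set had been taken out, among 13404 genes. This likeness is a description, since all points share their libraries. For *Hnf4a* the 5 genes were *4833439L19Rik* (r = 0.917), *Dnaja3* (0.894), *Fam210a* (0.885), *Snap29* (0.882) and *R3hdm2* (0.881). For *Hnf4aos* they were *Zswim7* (r = 0.848), *Phf7* (0.804), *Nat9* (0.795), *Pccb* (0.777) and *Pxmp2* (0.776). *Hnf4g* had weaker companions, led by *Cdkl3* (r = 0.751) and *Auts2* (0.645), then *Parm1* (0.592), *Pkm* (0.539) and *Nup62* (0.538). *Nr1h4* was most like *Rnf24* (r = 0.838), *Mtss1* (0.788), *Hsd3b9* (0.779), *Jarid2* (0.704) and *Aacs* (0.703). The 4 members themselves were left out of this search, so none could appear in another's list. The 4 lists shared no gene.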

How the data were processed

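RNA was read from poly(A)-selected, strand-marking libraries of 32 kidneys. Per the methods and labels, the authors trimmed reads with cutadapt 2.10, used STAR 2.7.5a for alignment (GRCm39) and HTSeq 0.12.4, with the strand setting on, for counting over the genes of Ensembl 103. The deposited values are raw counts of 53700 genes. The 5 summary lines of the table were left out (7.6 to 16.4% of reads per library had no feature). Genes above a log2 CPM of 1 in at least 25% of kidneys were tested (13961).

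All groups were fitted together with edgeR 4.0.16 (R 4.3.3; TMM scaling, quasi-likelihood test), and adjusted p-values are Benjamini-Hochberg over all genes tested. The SE of an edgeR log2 fold change is its size divided by the square root of the F value of that test. Log2 CPM for the correlations and for the genes most like each member used a prior count of 2. Alternatives used DESeq2 1.42.0, limma 3.58.1, other filters, single wildtype sets, a replicate block and each kidney left out. Correlations used 100000 two-sided permutations (scipy 1.17.1). The scripts were tested on simulated data. Exon lengths came from GENCODE M39, which held 52610 of the 53700 gene IDs.

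The members and gene lists were chosen with earlier results of these data known. Named genes were the 4 members, the 5 genes most like each, of each list those called between treated and untreated PKD mice and the 4 largest called changes between PKD and wildtype, fixed partners (*Ppara*, *Ppargc1a*, *Rxra* and *Nr0b2*; others are not reported here) and neighbours within 250 kb. Each mouse gave 1 kidney library as far as the labels say. Same-numbered kidneys did not deviate together, so numbers were not used to pair them.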

Additional observations from a re-analysis of the deposited data

Results flagged for a closer look

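The *Hnf4aos* level of wildtype replicate 4, 36.0 CPM, stood far above the other 7 wildtype libraries: its gap to the next one was 0.531 of the range of the group, over the critical value of Dixon's test for 8 values (0.526). Within the 5 libraries ending in R, to which it belongs, the gap was 0.599 of the range, under the critical value of 0.71. Chance alone marks about 1 in 20 groups in this way. Without that kidney the log2 fold change of *Hnf4aos* was -0.74 in PKD and -1.34 in PKD + Salsalate against wildtype.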

How the results depend on the processing

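Of the fold changes of the 4 genes, 114 of 120 under other settings and 384 of 384 with a kidney left out moved by less than the spread between kidneys. The 6 others came from the wildtype set: *Hnf4a* stood at 0.11 (R set) and -0.54 (other set) in PKD and at 0.19 and -0.45 in PKD + Salsalate, and *Hnf4g* at 0.0595 and 0.19 against the other set. The causes were not tested. The correlation of *Hnf4g* and *Nr1h4* within PKD lay between -0.785 and -0.721 with a kidney left out.

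Genes called between PKD + Salsalate and PKD numbered 81, and 199 with the DESeq2 Wald test, 146 with limma-voom, 195 with only these groups fitted, 145 and 257 with only the R or other wildtype set, and 39 (without treated replicate 5) to 226 (without treated replicate 11) with a kidney left out. Same-numbered kidneys of these groups had correlated deviations of -0.401 to 0.406 (2 of 12 over 0.1, and 1 of 12 best with its own number), so they share only a number, and the replicate block gave 48 calls and 0 HNF4A targets.

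For the same comparison the HNF4A targets (1 call) had 0 with DESeq2 size factors and limma-voom, 2 with the Wald test, filterByExpr or only 2 groups, 4 without a filter, 3 with the other wildtype set, and 0 to 1 with a kidney left out. The tubule factors (0) had 1 with the Wald test, with only these groups and with either wildtype set, and 0 to 1 with a kidney left out, as had the nuclear receptors. The FXR list (0) had 1 with filterByExpr and 3 without a filter. The 4 HNF4A target calls and 3 FXR list calls without a filter were all lower in the treated kidneys. PKD replicate 10 held 552.6 CPM of *Apoa1* and 119.1 of *Kng1*, genes of these lists. The other PKD kidneys held at most 0.997 and 1.20. No fit without a filter left replicate 10 out. Against wildtype, the FXR list (5 in PKD) had 8 with filterByExpr or the R set. It had 11 without a filter, where more genes were tested, 10 up and 1 down. Liver genes high in PKD replicate 10, such as *Kng1*, are on that list, and their part in the 11 was not tested. The HNF4A targets had 14 in either PKD group with the R set. With the other set, the partners had 3 in PKD and 2 in PKD + Salsalate, and the tubule factors 9 in PKD + Salsalate. Without centring, 0 of the 5 genes most like *Hnf4a* or *Hnf4aos* and 2 of those most like *Hnf4g* or *Nr1h4* were among the 5.

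*Hnf4g*, with as few as 59 counts in a library, had the lowest counts of the 4 genes. The largest standard errors of the log2 fold changes were those of *Hnf4aos*. Against all wildtype they were 0.15 in PKD and 0.16 in PKD + Salsalate, where *Hnf4g* had 0.13 in both. Between the PKD groups they were 0.14 for *Hnf4aos* and 0.12 for *Hnf4g*.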
